A study of Mus musculus with 120 samples.

Results

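*Itgad*, which encodes the integrin alpha subunit CD11d, was described together with its partner subunit and closest relatives. The beta2 integrins were taken by symbol as *Itgad*, *Itgam* (CD11b), *Itgax* (CD11c), *Itgal* (CD11a) and *Itgb2* (CD18), which are 5 of the 55487 genes shared by both count tables. Each alpha subunit pairs with the common beta subunit CD18 to form a leukocyte adhesion receptor that is switched from a bent to an extended form by signals from inside the cell. The pair of *Itgal* and *Itgb2* (LFA-1) binds intercellular adhesion molecules and is the main beta2 integrin of lymphocytes, whereas the pairs with *Itgam* (complement receptor 3) and *Itgax* (complement receptor 4) bind complement fragments and fibrinogen on myeloid cells. CD11d is best known from macrophages, and it has been reported to bind VCAM-1.

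Bulk RNA was sequenced from the immunological niche (IN), a porous polycaprolactone scaffold placed under the skin of female mice at 4 weeks of age, biopsied from 6 weeks onward and replaced after each biopsy. The 97 NOD/ShiLtJ samples came from 58 biopsies of 10 progressors, which became hyperglycemic during the study, and 39 biopsies of nonprogressors, which did not. Progressors were sampled at 6 weeks of age, at 7, 5, 3 and 1 weeks before onset (−7, −5, −3 and −1) and at onset. Nonprogressors were sampled at an age of 6 to 22 weeks (33 samples of 11 numbered mice) or are labelled by 31, 38 or 108 days (6 samples, not tied to a numbered mouse). The 23 NOR/LtJ samples, from 5 mice of a related strain that does not develop hyperglycemia, were taken at an age of 6, 10, 14, 18 and 22 weeks. No transgene or test agent is named for any group. All mice received isoflurane anesthesia and the analgesic carprofen, an anti-inflammatory drug, with the surgeries. Every IN is a foreign body response, and a mouse was biopsied repeatedly, so that IN samples of 1 mouse are not independent. The 6-week samples were first implants, while later samples followed further surgeries and replacements. Comparisons over time thus cannot tell age or time to onset apart from the implant and surgery history. Batch 1 held 74 samples, with all NOR samples among them. Batch 2 held 46 samples, with all 8 of the −7 samples.

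Counts per sample ran from 4722396 to 56185434, with a median of 33487260.5. A library stood apart: a single ribosomal RNA gene took 85.7% of the reads of NOR mouse 5 at 18 weeks, and 1233373 counts were on other genes. Macrophage markers were present in every sample, with *Adgre1* at 65.6 to 452 CPM and *Cd68* at 408 to 1685 CPM. Within the other lists, levels differed widely between markers. Of the neutrophil markers, *Ly6g* had no count in 38 samples, whereas *Csf3r* was at 5.05 to 254 CPM. Of the red pulp macrophage markers, *Spic*, a defining gene, reached at most 2.97 CPM, whereas *Siglec1* was at 42.5 to 367 CPM and *Hmox1* at 94.0 to 471 CPM. Levels are given as CPM, the count divided by the library size and scaled by edgeR's TMM factors over all 120 samples.

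The 4 alpha subunit genes lie on the plus strand of chromosome 7 in GRCm38, with gene models from GENCODE M21. *Itgad* (ENSMUSG00000070369) spans chr7:128154376-128223816, and *Itgax* (ENSMUSG00000030789, chr7:128129547-128150657) starts 24.8 kb before it. *Itgam* (ENSMUSG00000030786, chr7:128062640-128118491) starts 91.7 kb and *Itgal* (ENSMUSG00000030830, chr7:127296260-127335138) 858 kb before *Itgad*. *Itgb2* (ENSMUSG00000000290, chr10:77530252-77565708) is on chromosome 10. The coding sequences of *Itgad* and *Itgax* had 73.8% identity over 3444 aligned bases. *Itgad* had a lower identity with *Itgam* (66.4%), *Itgb2* (65.0%) and *Itgal* (58.1%). The longest run of identical bases was 188 between *Itgad* and *Itgax* and no more than 19 in any other pair of members. That run is shown because reads that fall inside it cannot be assigned to 1 gene by their sequence. It is part of the coding sequence and is spliced from exons at chr7:128189340-128189789 in *Itgad* and chr7:128135612-128136062 in *Itgax*, and capitals mark the identical bases in the transcript, with 30 bases on each side in lower case.
Itgad: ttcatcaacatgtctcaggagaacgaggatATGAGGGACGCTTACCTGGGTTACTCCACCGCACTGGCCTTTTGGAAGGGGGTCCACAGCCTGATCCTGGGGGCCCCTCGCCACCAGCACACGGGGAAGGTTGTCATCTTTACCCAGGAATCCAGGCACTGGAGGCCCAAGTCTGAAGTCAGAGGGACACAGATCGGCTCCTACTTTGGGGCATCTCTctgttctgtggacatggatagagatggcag
Itgax: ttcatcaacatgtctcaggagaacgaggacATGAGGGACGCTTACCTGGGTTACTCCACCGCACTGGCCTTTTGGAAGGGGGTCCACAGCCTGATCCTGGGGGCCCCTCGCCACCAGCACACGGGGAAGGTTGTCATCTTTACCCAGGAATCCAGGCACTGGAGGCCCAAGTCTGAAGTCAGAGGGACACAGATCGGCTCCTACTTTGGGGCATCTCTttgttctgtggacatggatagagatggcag
Of the 100-base windows of *Itgad*, 3.78% also occur in *Itgax*, and of the 50-base windows 9.81% do. No other annotated transcript holds a 50-base window of *Itgad*. *Itgam* shares 73.9% of its 50-base windows with the overlapping gene model *Gm49368*, so counts of these genes could be split. Whether the counting used strand is not stated, and reads from genes that overlap *Itgad* on the other strand could not be told apart if it did not.

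*Itgad* was the member with the widest contrast between the strains. The members were selected on this contrast, that is, on the measured difference of *Itgad* between NOD and NOR, and on its gene family, so the differences between the strains below are descriptions without a test. Across the 51 NOD samples of batch 1, *Itgad* ran from 43.3 to 139 CPM with a median of 84.5 CPM, on counts of 369 to 4505. Across the 23 NOR samples it ran from 0 to 0.883 CPM with a median of 0.237 CPM, on counts of 0 to 26. The ranges did not overlap, and the lowest NOD sample lay far above the highest NOR sample. The sample with no count is the 18-week library of mouse 5 with most of its reads on ribosomal RNA, in which 3 counts would correspond to 3.03 CPM. In bulk tissue, fewer cells that express a gene and less of its RNA in each cell cannot be told apart.

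**Figure D1:**
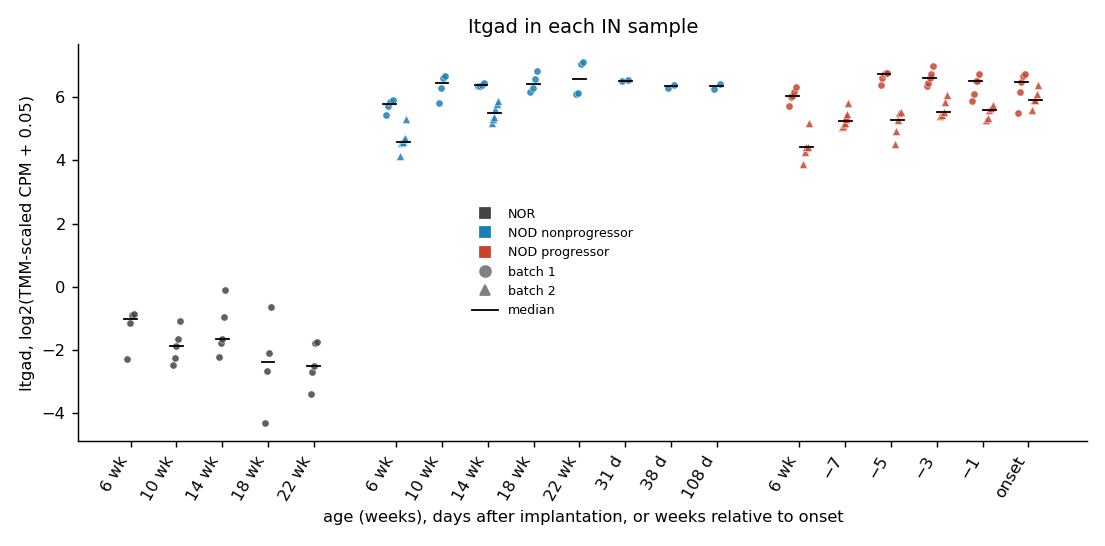
Level of *Itgad* in each of the 120 samples, as log2 of TMM-scaled CPM plus 0.05, by group and time, with batch marked. The NOR samples lie below 1 CPM at every age, and the NOD samples of batch 1 lie between 43.3 and 139 CPM.

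Summed over the biopsies of each mouse in batch 1, *Itgad* measured 0.357, 0.378, 0.257, 0.169 and 0.211 CPM in NOR mice 1 to 5. Nonprogressors 1 to 4 had 88.5, 69.6, 82.8 and 66.3 CPM. Progressors 1 to 5 had 82.7, 65.4, 78.2, 88.2 and 101 CPM. Every NOD mouse was thus above every NOR mouse, while progressors and nonprogressors overlapped. With 1 library per mouse (9 NOD and 5 NOR mice), the log2 difference of NOD minus NOR was 8.20 (SE 0.20), a 293-fold higher level. It was 8.25 (SE 0.21) with progressors alone and 8.13 (SE 0.21) with nonprogressors alone, which share the NOR mice. Leaving out the ribosomal RNA library also gave 8.20 (SE 0.20). Of 23387 genes tested, 8.98% passed an adjusted p of 0.05 in this comparison (3.87% higher and 5.11% lower in NOD), 0.154% had a log2 difference over 5, and 0.21% were higher in NOD without overlap between the samples. *Itgad* ranked 7 among all tested genes by log2 difference. By age, single samples of batch 1 nonprogressors were set against NOR, without progressors. Their log2 difference of *Itgad* was 7.07 (SE 0.40) at 6 weeks, 8.41 (SE 0.37) at 10 weeks and 7.74 (SE 0.36) at 14 weeks. It was 8.32 (SE 0.46) at 18 weeks and 9.33 (SE 0.40) at 22 weeks.

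The other members did not show this contrast. *Itgax*, a marker of dendritic cells and of some macrophages, was lower in NOD, with a log2 difference of −0.52 (SE 0.11). Its summed level was 1042, 1070, 1215, 1167 and 1007 CPM in NOR mice 1 to 5, and 910, 656, 708 and 615 CPM in nonprogressors 1 to 4. Progressors 1 to 5 had 759, 604, 803, 900 and 927 CPM of *Itgax*, so that each NOD mouse was below each NOR mouse, although single samples overlapped (373 to 1373 CPM in NOD and 697 to 1569 CPM in NOR). Between nonprogressors alone and NOR, the log2 difference of *Itgax* was −0.91 (SE 0.24) at 6 weeks and −0.30 (SE 0.22) at 22 weeks. *Itgal* had a log2 difference of −0.44 (SE 0.14), with 18.2 to 32.9 CPM in the 9 NOD mice and 29.5 to 44.6 CPM in the 5 NOR mice. *Itgam* (0.14, SE 0.12) and *Itgb2* (−0.02, SE 0.10) had log2 differences near 0 with overlapping mice when the ages were summed. Between nonprogressors alone and NOR, *Itgam* had −0.50 (SE 0.21) at 6 weeks, 0.61 (SE 0.20) at 14 weeks and 0.13 (SE 0.20) at 22 weeks. For *Itgb2* the values were −0.53 (SE 0.18), 0.06 (SE 0.17) and −0.03 (SE 0.17) at the same ages. The highest NOR sample of *Itgal*, at 139.7 CPM, came from mouse 4 at 18 weeks, while the other NOR samples reached at most 49.1 CPM.

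**Figure D2:**
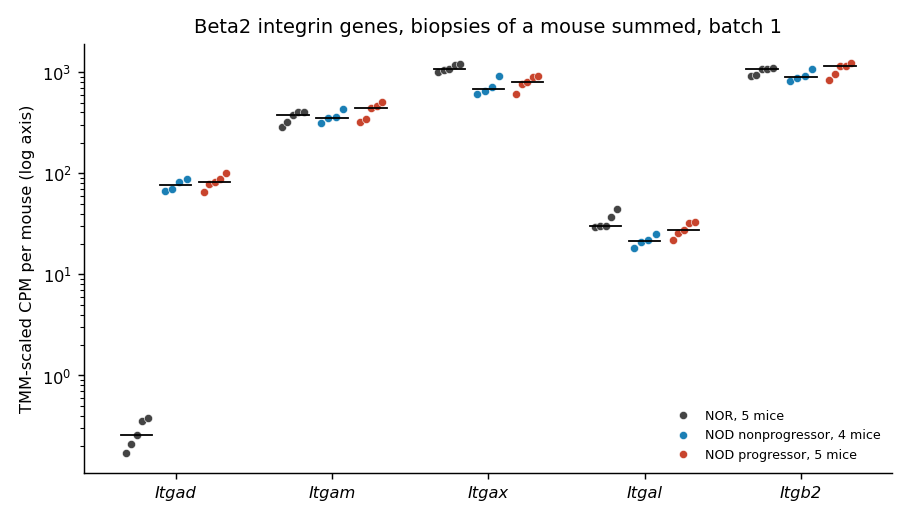
Level of the 5 beta2 integrin genes in each mouse of batch 1, as CPM of the summed biopsies on a log axis. *Itgad* lies between 0.169 and 0.378 CPM in the 5 NOR mice and between 65.4 and 101 CPM in the 9 NOD mice, whereas the strains overlap for *Itgam*, *Itgal* and *Itgb2*.

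The 21 other integrin subunits had no gene past the threshold on the higher side in NOD, and *Itgb5* (log2 difference −0.19) and *Itga1* (−0.31) were past it on the lower side. Their median log2 difference was 0.04, against −0.00 over all genes. Over all genes tested, 3.87% passed on the higher side and 5.11% on the lower side. Of 15 tested beta2 integrin ligands, the complement component *C3* (−0.75) and *Vcam1* (−0.81), which encodes a ligand of CD11d, were lower. Of 24 genes of integrin activation and signalling, *Dock2* (−0.28) was lower and none was higher. Macrophage markers had 5 of 10 genes past the threshold, all lower, among them the complement C1q genes *C1qb* (−0.88), *C1qc* (−0.53) and *C1qa* (−0.50). The summed macrophage markers overlapped between the strains, with 3665 to 9177 CPM in NOD of batch 1 (median 5894) and 4065 to 10469 CPM in NOR (median 5926). The sum is carried by *Lyz2* (median 3267 CPM) and *Cd68* (median 983 CPM). Red pulp macrophage markers had 2 of 8 genes lower, *Vcam1* and the iron exporter gene *Slc40a1* (−1.16), with sums of 284 to 691 CPM in NOD and 350 to 681 CPM in NOR. Of 9 dendritic cell markers, *Clec10a* (−1.01) was lower, and of 10 tested neutrophil markers, *Csf3r* (−0.94) was. Mast cell markers had 4 of 6 genes lower, such as the tryptase gene *Tpsb2* (−1.54), with sums of 3.34 to 110.3 CPM in NOD of batch 1 and 10.5 to 156 CPM in NOR. Of 8 T cell markers, *Cd4* (−1.13) was lower, and of 6 B cell markers, *Cd22* (−0.51) was. The median log2 difference of the 6 B cell markers was 0.76, opposite in sign to that of *Cd22*, although none passed on the higher side. No fibroblast, endothelial or NK cell marker passed. The part of these cell types in the level of *Itgad* was not tested.

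Genes around the alpha subunit cluster were compared for the same reason. Within 500 kb of the alpha subunit genes, 100 genes could be tested, and 12 of them (12%) passed the threshold, 3 higher and 9 lower in NOD, against 8.98% of all genes. Leaving out the members, their log2 differences ran from −0.83 to 0.85 with a median of −0.05. The 5 with the smallest p were *AI467606* (−0.61), *9130023H24Rik* (0.47), *1700008J07Rik* (−0.37), *Rnf40* (−0.19) and *Bag3* (−0.28). *9130023H24Rik* starts 80.1 kb after the start of *Itgad* and ranged from 7.21 to 12.4 CPM in NOD of batch 1 and from 0 to 8.02 CPM in NOR. None of these differences came near that of *Itgad*.

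**Figure D3:**
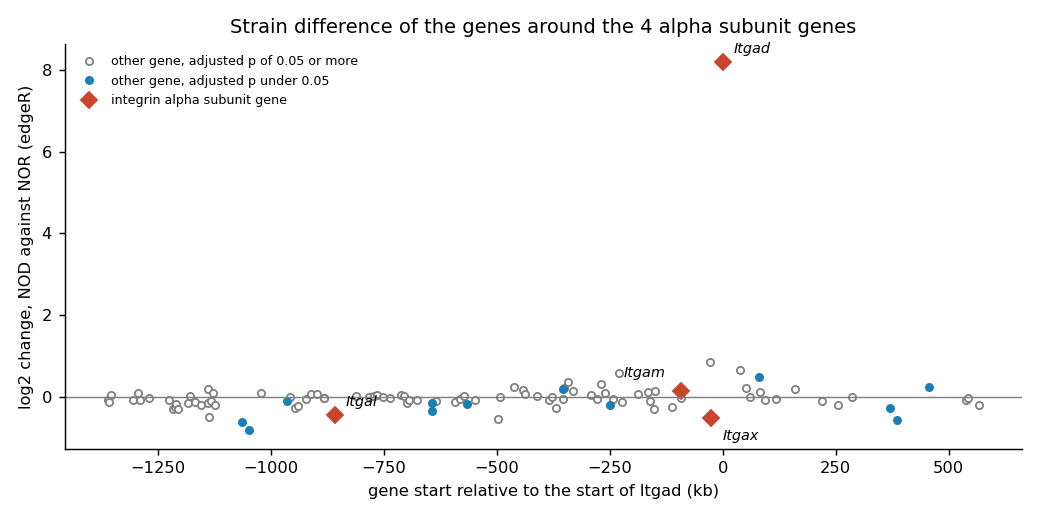
Log2 difference of NOD minus NOR for genes within 500 kb of the alpha subunit genes, against the distance of each gene's start from the start of *Itgad* in kb. *Itgad* stands at 8.20, and the tested genes other than the members lie between −0.83 and 0.85.

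Levels between genes were compared as CPM per kilobase of exons. Over all 97 NOD samples the median was highest for *Itgb2*, at 294 CPM per kb (179 to 544). It was 173 for *Itgax* (68.2 to 353), 62.8 for *Itgam* (35.0 to 163), 13.3 for *Itgad* (3.25 to 30.8) and 3.93 for *Itgal* (1.51 to 8.73). The ranges of neighbouring genes in this order overlapped except for those of *Itgam* and *Itgad*. Of the 4 alpha subunits together, per length, *Itgad* made up a median of 6.90% in NOD of batch 1 (5.00% to 10.7%), 3.53% in NOD of batch 2 (1.87% to 4.76%) and 0.0157% in NOR (0% to 0.0530%). *Itgax* was the largest part in each set, with medians of 62.3%, 72.9% and 74.8%. *Itgam* made up 29.1%, 21.7% and 23.1%, and *Itgal* 1.54%, 1.42% and 1.61% in the same order.

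The level of *Itgad* also differed between the sequencing batches, while that of *Itgax* did not pass the threshold. This comparison of 6-week NOD samples was chosen after seeing the data. At this age the batches held different mice. The paper ran the batches on different sequencing instruments and used more than 1 cohort of mice. At 6 weeks, *Itgad* was 71.3, 53.1, 80.5, 66.1 and 64.2 CPM in progressors 1 to 5 and 52.6, 60.2, 58.2 and 43.3 CPM in nonprogressors 1 to 4, all in batch 1. In batch 2 it was 21.3, 36.1, 21.6, 14.7 and 19.4 CPM in progressors 6 to 10 and 39.4, 23.7, 25.3, 23.2, 17.7, 25.9 and 24.1 CPM in nonprogressors 5 to 11. The batches did not overlap. The log2 change of batch 2 against batch 1 was −1.32 (SE 0.15, adjusted p = 1.49e-07 by edgeR), in a comparison in which 61.8% of 19082 genes passed the threshold, 31.7% higher and 30.1% lower in batch 2. A change as low or lower was seen in 4.61% of the genes. *Itgal* also fell, by 0.39 (SE 0.16, adjusted p = 0.0375), whereas *Itgax* (−0.02, SE 0.15, adjusted p = 0.932), *Itgam* (0.26, adjusted p = 0.0942) and *Itgb2* (−0.12, adjusted p = 0.336) did not pass. Cell type markers differed as well. All 6 skeletal muscle markers and 5 of 6 adipocyte markers were lower in batch 2, and 4 of 6 fibroblast markers were higher. The parts of mice, instrument and tissue content in the difference of *Itgad* were not tested.

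Expressed per length, *Itgad* was 9.05% to 18.2% of *Itgax* in NOD of batch 1 (median 11.7%) and 4.13% to 6.22% in NOD of batch 2 (median 4.86%), again without overlap. In NOR it was 0% to 0.0697% (median 0.0202%). Progressors 1 to 4 were sequenced in both batches. Their samples in batch 1 had ratios of 9.12% to 13.9%, and their −7 samples in batch 2 had 4.47% to 5.67%. In progressors of batch 1 the median ratio was 12.2% at 6 weeks and 12.3% at −5, the times on either side of −7, and in batch 2 it was 4.66% at 6 weeks, 4.97% at −7 and 4.64% at −5. The ratio of the −7 samples thus lay with that of the other batch 2 samples. Toward onset the batch 1 median was 12.2% at −3, 10.2% at −1 and 9.74% at onset, and the onset samples (9.12% to 10.3%) lay below those at 6 weeks (11.7% to 12.9%) without overlap. In batch 2 the onset samples (4.67% to 5.44%, median 5.06%) overlapped those at 6 weeks (4.13% to 4.79%) and had the higher median. The highest ratio, 18.2%, belonged to a nonprogressor at 22 weeks, and the other NOD samples of batch 1 reached at most 13.9%. Comparisons over time in NOD were fitted with the batch as a term for this reason.

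**Figure D4:**
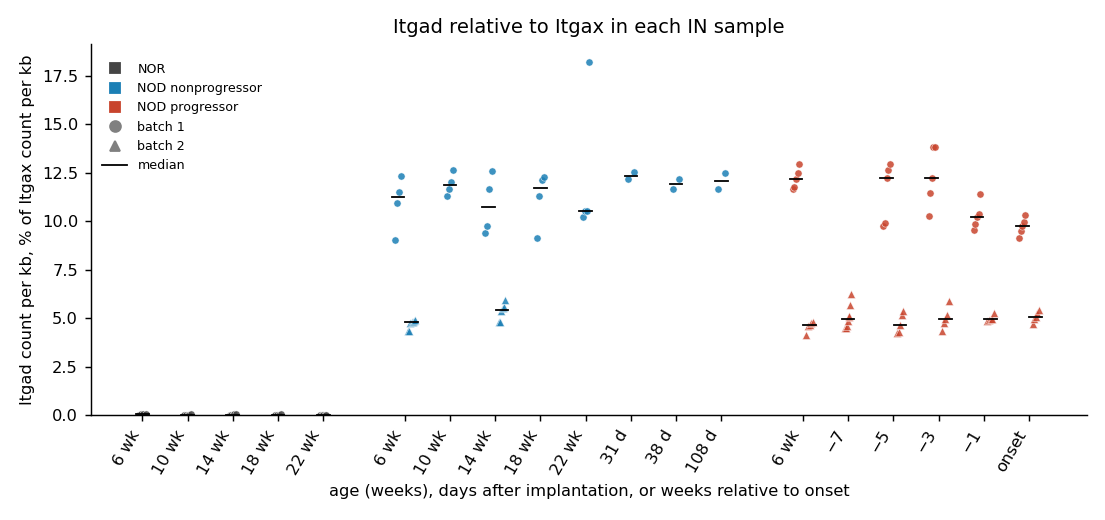
*Itgad* count per kb as a percentage of the *Itgax* count per kb in each sample, by group, time and batch. NOD samples lie at 9.05% to 18.2% in batch 1 and at 4.13% to 6.22% in batch 2, and NOR samples at 0.0697% or less.

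Progressors and nonprogressors were compared at 6 weeks, before hyperglycemia, with 10 against 11 mice. No member passed the threshold, and none of 19082 genes did (0%) by edgeR or DESeq2, with 985 genes at an unadjusted p under 0.05. The log2 change of *Itgad* was 0.03 (95% interval −0.26 to 0.32, adjusted p = 0.990). *Itgam* had the largest, at 0.25 (−0.00 to 0.51, adjusted p = 0.891), and *Itgal* had 0.25 (−0.06 to 0.56). *Itgax* (−0.04, −0.32 to 0.24) and *Itgb2* (0.09, −0.11 to 0.29) had smaller ones.

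The later samples, summed to 1 library per mouse (−3, −1 and onset in progressors, 14 to 22 weeks in nonprogressors), gave no call for a member either. In batch 2 the late nonprogressor samples were all from 14 weeks, so ages were matched less closely there. None of 21736 genes passed by edgeR (0%), 1532 had an unadjusted p under 0.05, and 17 genes passed with DESeq2. The log2 change of progressors against nonprogressors was 0.06 for *Itgad* (95% interval −0.15 to 0.27, adjusted p = 0.913). It was 0.30 for *Itgal* (0.07 to 0.53), 0.21 for *Itgam* (−0.09 to 0.51), 0.15 for *Itgax* (−0.07 to 0.36) and 0.14 for *Itgb2* (−0.01 to 0.30), with adjusted p from 0.683 to 0.776.

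All 5 members were higher at onset than at 6 weeks in progressors. *Itgax* rose by 0.99 on the log2 scale (SE 0.14, adjusted p = 1.44e-07 by edgeR), *Itgad* by 0.90 (SE 0.16, adjusted p = 2.10e-05) and *Itgb2* by 0.65 (SE 0.11, adjusted p = 1.30e-05). *Itgal* rose by 0.59 (SE 0.17, adjusted p = 0.00549) and *Itgam* by 0.48 (SE 0.18, adjusted p = 0.0350). Of all 21279 genes tested, 39.6% passed the threshold, 19.6% higher and 19.9% lower at onset. The median change of the 5 members was 0.65, against −0.00 over all genes.

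The batches differed in these changes. In batch 1, *Itgad* was 71.3, 53.1, 80.5, 66.1 and 64.2 CPM at 6 weeks and 71.3, 45.4, 107, 90.0 and 102 CPM at onset in progressors 1 to 5. In batch 2, progressors 6 to 10 had 21.3, 36.1, 21.6, 14.7 and 19.4 CPM at 6 weeks and 60.5, 48.8, 59.8, 83.6 and 68.5 CPM at onset. Each of the 5 mice of batch 2 was higher at onset, by 1.35 to 5.70-fold, while 3 of the 5 mice of batch 1 were, with folds of 0.855 to 1.58. Within batch 1, the log2 change of *Itgad* was 0.32 (SE 0.19, adjusted p = 0.245), and within batch 2 it was 1.49 (SE 0.20, adjusted p = 1.48e-06). The difference between the batches was not tested. *Itgax* was higher at onset in all 10 mice and passed within each batch (0.66, adjusted p = 0.0244 and 1.34, adjusted p = 3.17e-07). *Itgb2* likewise was higher in all 10 mice and passed in both (0.58, adjusted p = 0.0246 and 0.74, adjusted p = 8.93e-05). *Itgal* passed only within batch 2 (1.05, adjusted p = 0.000524) and not within batch 1 (0.16, adjusted p = 0.670). *Itgam* passed within neither batch, with 0.63 (adjusted p = 0.124) in batch 1 and 0.39 (adjusted p = 0.133) in batch 2, although it was higher in 9 of 10 mice.

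Genes of other cell types moved in the same comparison, in which 19.6% of all genes rose and 19.9% fell. All 6 fibroblast markers fell, among them *Dcn* (by 1.46 on the log2 scale) and the collagen gene *Col3a1* (by 1.81), and 4 of 6 endothelial markers fell, such as *Cdh5* (by 1.09). In batch 2 the summed fibroblast markers ran from 28898 to 53222 CPM at 6 weeks and from 4350 to 13303 CPM at onset. In batch 1 they ran from 34031 to 63358 CPM and from 7120 to 32977 CPM. The fall was thus without overlap in both batches, and its part in the rise of the members was not tested. Of 10 macrophage markers, *Fcgr1* fell by 1.07 and *C1qa* by 0.49. Red pulp macrophage markers had 4 of 8 genes lower and none higher, and *Cd5l* fell by 2.86, *Vcam1* by 1.12 and *Siglec1* by 0.73. Of the 6 B cell markers, 5 rose, such as *Cd79a* (2.11) and *Ms4a1* (2.77).

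Among the genes that work with the beta2 integrins, 6 of 24 of activation and signalling rose and 1 fell. Over all genes tested, 19.6% rose and 19.9% fell, and the counts of these lists were not tested against those shares. *Cyth1*, whose product binds the CD18 tail, rose by 0.53 on the log2 scale (adjusted p = 7.80e-07), the exchange factor gene *Vav1* by 0.36 and the kinase gene *Syk* by 0.35, while the small GTPase gene *Rap1a* fell by 0.28. Of 14 ligands tested, 3 rose and 4 fell. The platelet receptor gene *Gp1ba* rose by 0.76, the junctional adhesion molecule gene *F11r* by 0.59 and the fibrinogen chain gene *Fgg* by 3.70. *Jam3* fell by 0.97, *Thy1* by 1.44 and *Vcam1* as given above. None of the 21 other integrin subunits rose, and 3 fell, *Itga10* by 1.79, *Itga2* by 0.42 and *Itgav* by 0.33. Their median change was −0.11.

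At −7, *Itgad* and *Itgax* were higher than at 6 weeks and *Itgam* was not. *Itgax* rose by 0.53 on the log2 scale (SE 0.15, adjusted p = 0.0135 by edgeR) and *Itgad* by 0.54 (SE 0.18, adjusted p = 0.0402), where 12.5% of 21279 genes passed, 5.91% higher and 6.64% lower. The mouse block together with the batch term gave 0.37 for *Itgax* (adjusted p = 0.228) and 0.38 for *Itgad* (adjusted p = 0.339), so that both calls were lost. Without the batch term, the change of *Itgad* was −0.15 (adjusted p = 0.741). *Itgb2* (0.21, adjusted p = 0.302), *Itgal* (0.27, adjusted p = 0.387) and *Itgam* (−0.41, adjusted p = 0.183) did not pass.

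Progressors 6, 7, 9 and 10 had both times in batch 2. *Itgad* was 21.3, 36.1, 14.7 and 19.4 CPM in them at 6 weeks and 33.3, 44.7, 35.3 and 36.0 CPM at −7, higher in 4 of 4 mice by 1.24 to 2.41-fold. *Itgam* was lower at −7 in all 4, at 0.445 to 0.752 of its 6-week level, and *Itgax* was higher in 3 of 4. Within batch 2, *Itgad* rose by 0.83 (adjusted p = 0.00209), *Itgax* rose by 0.69 (adjusted p = 0.00174) and *Itgam* fell by 0.63 (adjusted p = 0.0136). The remaining 4 of the 8 samples at −7 came from mice whose 6-week samples are in batch 1. The list genes below are from the fit over both batches, in which the −7 samples depend on the batch term. Of the signalling genes, *Syk* rose at −7 (0.32), and of the macrophage markers *Mertk* (0.63) did, while *Cd5l* fell by 1.71. Among the ligands, *Jam3* fell by 0.61 (SE 0.19, adjusted p = 0.0244 by edgeR) and *Fgg* rose by 4.57 (SE 1.51, adjusted p = 0.0359). Fibroblast markers had 2 of 6 genes lower.

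*Itgam* was the member that rose after −7. The mean of the later times (−5, −3, −1 and onset) was higher than −7 by 0.69 on the log2 scale (SE 0.18, adjusted p = 0.0187), where 3.89% of genes passed, 1.98% higher and 1.91% lower. Its level was 186 to 303 CPM at −7 (median 222) and 377 to 529.9 CPM at onset in batch 2 (median 481), without overlap. The batch 2 samples at −5 (176 to 465 CPM), −3 (278 to 383 CPM) and −1 (229 to 450.1 CPM) overlapped those at −7. With the mouse block and the batch term its change was 0.78 (adjusted p = 0.133), and no gene of 21279 passed in that fit. The changes of *Itgb2* (0.30, adjusted p = 0.0971), *Itgax* (0.27, adjusted p = 0.215), *Itgad* (0.22, adjusted p = 0.428) and *Itgal* (0.19, adjusted p = 0.521) did not pass. Of the other integrin subunits *Itga9* (0.32) and *Itga5* (0.36) rose, and *Itga10* and *Itgav* fell by 1.28 and 0.35. *Adgre1* (0.37) rose among the macrophage markers and *Cyth1* (0.28) among the signalling genes.

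**Figure D5:**
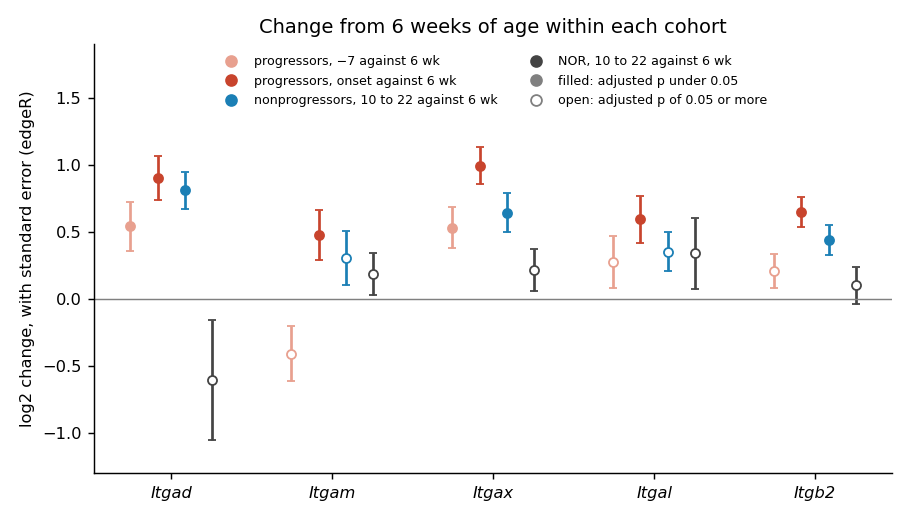
Log2 change of each member with its standard error in the comparisons over time, with filled points where the adjusted p was under 0.05. All 5 members are filled for onset against 6 weeks, *Itgad*, *Itgax* and *Itgb2* for the later ages in nonprogressors, and none in NOR.

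In nonprogressors, *Itgad*, *Itgax* and *Itgb2* were higher at 10 to 22 weeks than at 6 weeks. *Itgad* rose by 0.81 on the log2 scale (SE 0.14, adjusted p = 0.000152 by edgeR), *Itgax* by 0.64 (adjusted p = 0.00221) and *Itgb2* by 0.44 (adjusted p = 0.00486), where 24.1% of 21138 genes passed, 9.88% higher and 14.2% lower. In batch 1, *Itgad* was 52.6, 60.2, 58.2 and 43.3 CPM at 6 weeks in mice 1 to 4, and 131.8, 69.4, 138.9 and 70.5 CPM at 22 weeks. In batch 2, mice 5 to 10 had 39.4, 23.7, 25.3, 23.2, 17.7 and 25.9 CPM at 6 weeks and 49.8, 36.7, 41.7, 55.0, 39.4 and 59.0 CPM at 14 weeks. All 10 mice had a mean of the later ages above their own 6-week level, by 1.26 to 2.37-fold. *Itgax* was higher in 9 of 10 and *Itgb2* in 10 of 10. *Itgb2* did not pass within batch 2 (0.29, adjusted p = 0.0535).

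*Itgam* and *Itgal* did not pass in this comparison, and their values depended on the batch and the fit. *Itgam* changed by 0.30 (adjusted p = 0.292) in the joint fit. Within batch 1 it rose by 0.84 (adjusted p = 0.00641), and it was higher in 4 of 4 mice. Within batch 2 its change was −0.25 (adjusted p = 0.340), and it was higher in 1 of 6 mice. Both batches hold samples at 6 and 14 weeks. In batch 1, *Itgam* was 215 to 275 CPM at 6 weeks (median 243) and 299 to 564 CPM at 14 weeks (median 557), without overlap. In batch 2 it was 239 to 421 CPM at 6 weeks (median 292) and 195 to 460.4 CPM at 14 weeks (median 216), with overlap. The directions thus differed between the batches at the same ages, and the difference itself was not tested. *Itgal* changed by 0.35 (adjusted p = 0.0746), and with the mouse block it rose by 0.36 (adjusted p = 0.0315). Over all genes tested in this comparison, 9.88% rose and 14.2% fell. All 6 fibroblast markers fell over these ages, such as *Lum* by 1.18, while 3 of 6 B cell markers rose, such as *Pax5* by 1.73. Red pulp macrophage markers had 3 of 8 genes lower, and *Cd5l* fell by 2.18. Of the signalling genes, *Syk* (0.35) and *Fcer1g* (0.39) rose and *Rap1a* fell by 0.38. *Itgb5* (0.22) rose among the other integrin subunits and 5 fell, among them *Itgb8* (by 0.73), *Itga2* (by 0.47) and *Itgav* (by 0.31). Among 13 ligands, *Gp1ba* rose by 0.44, and *Jam3*, *Thy1* and *Vcam1* fell by 0.61, 0.70 and 0.52.

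In NOR, no member passed between 6 weeks and the later ages, where 7 genes of 19628 (0.0357%) did by edgeR, 46 by DESeq2 and 1341 at an unadjusted p under 0.05. *Itgad* was 0.491, 0.397, 0.155 and 0.496 CPM at 6 weeks in mice 1, 2, 4 and 5, and 0.125, 0.243, 0.246, 0.103 and 0.0443 CPM at 22 weeks in mice 1 to 5. These levels rest on 3 to 12 counts and on 1 to 8 counts, respectively. Its log2 change was −0.61 (95% interval −1.48 to 0.27, adjusted p = 0.863). The changes of the other members were 0.10 to 0.34. The change with age of *Itgad* in nonprogressors minus that in NOR within batch 1 was 1.38 (SE 0.46, adjusted p = 0.740), with an unadjusted p of 0.00527. No gene of 20647 passed in that comparison (0%) by edgeR, 9 did by DESeq2, and 1250 had an unadjusted p under 0.05. The same difference was 0.67 for *Itgam*, 0.53 for *Itgb2*, 0.45 for *Itgax* and 0.01 for *Itgal*, with adjusted p from 0.740 to 1.00.

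Across the 97 NOD samples, after the mean of each batch was subtracted, the level of *Itgad* ran with that of *Itgax*. Spearman's rho was 0.909, the second highest value of 23871 genes for *Itgad*, and is given as a description of samples that share mice and times. *Man2b1*, which encodes lysosomal alpha-mannosidase, had the highest rho with both *Itgad* (0.926) and *Itgax* (0.923), and *Cdk18* followed for *Itgad* (0.885). *Cd300lb* had 0.917 with *Itgax*. *Itgam* was most like *Ubash3b* (0.945), *A930007A09Rik* (0.906) and *Ak4* (0.906), *Itgal* most like *Zmynd15* (0.782), *Cxcl16* (0.781) and *Lpcat2* (0.778), and *Itgb2* like *Dhcr7* (0.915) and *Acox3* (0.913). Between the members, *Itgb2* had 0.847 with *Itgax*, 0.739 with *Itgam*, 0.738 with *Itgad* and 0.370 with *Itgal*. *Itgad* had 0.453 with *Itgal* and 0.275 with *Itgam*, and *Itgam* had 0.0238 with *Itgal*. The median rho with the 6 fibroblast markers was −0.685 for *Itgad*, −0.694 for *Itgax*, −0.687 for *Itgb2*, −0.473 for *Itgam* and −0.271 for *Itgal*. With the 8 T cell markers it was highest for *Itgal*, at 0.582.

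At 6 weeks each mouse gave 1 sample, and *Itgad* was correlated with the other 4 members within each batch (8 relations, permutation tests, two-sided, Benjamini-Hochberg adjusted). In batch 2 (n = 12) *Itgad* and *Itgax* had r = 0.980 and rho = 0.958, with permutation p adjusted to 0.000160 and 0.000320, and r was 0.955 without the 2 samples farthest from the median. In batch 1 (n = 9) they had r = 0.840 and rho = 0.817, with permutation p adjusted to 0.0293 and 0.0431, and r fell to 0.596 without the 2 farthest samples. With *Itgb2*, *Itgad* had r = 0.754 in batch 2 (permutation p adjusted to 0.0337) and rho = 0.538 (0.121), and r = 0.735 in batch 1 (0.0538) and rho = 0.783 (0.0459). Neither *Itgam* nor *Itgal* passed with *Itgad* in either batch.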

How the data were processed

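Bulk RNA sequencing of 120 IN biopsies was analysed. The authors deposited 1 table per sequencing batch of expected counts per gene, which the submitters' processing notes tie to cutadapt, FastQC, STAR, RSEM, MultiQC and GRCm38. Versions, the annotation release and strandedness are not given in the sources used here. The deposited expected counts are without normalization and were rounded to whole numbers for the comparisons. A table of 55487 shared genes was made, of which 55141 (99.4%) were matched by identifier to GENCODE M21. Libraries ran from 4722396 to 56185434 counts, and levels under about 10 counts, as for *Itgad* in NOR, are imprecise. None of 239 replicate pairs agreed within sampling noise (the chi-square divided by its degrees of freedom was at least 11.0).

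Comparisons were fitted over all genes passing filterByExpr with edgeR 4.0.16 in R 4.3.3 by its quasi-likelihood test after TMM scaling, at a threshold of 0.05 on p adjusted after Benjamini and Hochberg. SE is the size of the log2 change divided by the square root of F. NOD and NOR were compared within batch 1 with the biopsies of a mouse summed. Comparisons over both batches held the batch as a term. DESeq2 1.42.0, RLE scaling, no filter, single batches, no batch term, a mouse block and single mice left out were alternatives. The edgeR test was tested on simulated data. Permutation tests (100000 resamples for n = 12 and exact for n = 9), identities and figures used Python 3.11.15, scipy 1.17.1, numpy 2.4.6 and matplotlib 3.10.9.

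The mouse numbers in the labels pair the samples. Deviations from group means were hardly more alike within a mouse than between mice in NOR and nonprogressors, and slightly less alike in progressors. The mean r over 2000 genes was 0.00335 against −0.000836 in NOR, 0.00467 against −0.00149 in nonprogressors and −0.00390 against 0.00127 in progressors. The members and gene lists were chosen with earlier results of these data known. Named genes are the members, from each list up to 3 genes per direction with the smallest p past the threshold, the 3 genes most correlated with each member, and the 5 neighbours with the smallest p. Some genes under this rule are not reported here. Coding sequences were taken from GENCODE M21 transcripts. The 6 nonprogressor samples labelled by days entered levels but no comparison.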

Additional observations from a re-analysis of the deposited data

Results flagged for a closer look

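Within groups of 4 to 10 samples of 1 batch, 14 of 115 sets had a highest or lowest sample beyond Dixon's 95% limit. Normally distributed values would give about 1 in 20. The limit was applied to CPM without a log scale, and the 5 members share the same samples, so this rate is only a rough guide. For *Itgad*, the 6-week sample of nonprogressor 5 in batch 2 was high, at 39.4 CPM against at most 25.9 CPM in the other 6 mice. The same mouse was high for *Itgam* at 14 weeks (460.4 CPM).

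For *Itgam*, the 6-week samples of NOR mouse 4 (524 CPM) and progressor 4 (448 CPM) were high, and the 14-week sample of nonprogressor 2 in batch 1 was low (299 CPM). *Itgb2* stood apart in some of the same samples, high in NOR mouse 4 at 6 weeks (1366 CPM), low in nonprogressor 2 at 14 weeks (837 CPM), and high in progressor 7 at 6 weeks (977 CPM).

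For *Itgax*, nonprogressor 1 at 22 weeks (1373 CPM) and progressor 3 at −7 (1065 CPM) were high. *Itgal* was high in NOR mouse 4 at 18 weeks (139.7 CPM, against at most 43.4 CPM in the other samples of that age), in NOR mouse 3 at 14 weeks (49.1 CPM), in progressor 1 at −3 (57.3 CPM) and in progressor 5 at −5 in batch 1 (46.9 CPM).

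The 6 nonprogressor samples labelled by days, which entered no comparison, had *Itgad* at 76.9 CPM or more (up to 93.0 CPM), above the highest NOR sample (0.883 CPM).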

How the results depend on the processing

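The log2 difference of *Itgad* between NOD and NOR stayed between 7.26 (6-week samples alone) and 8.35 over 22 alternatives. No member passed in NOR over the ages or in the difference of age changes, whichever mouse was left out. Over the progressor times, the members past the threshold at −7 against 6 weeks (2) became 1 without a filter on low counts, 0 with the mouse block and batch term, and 1 without the batch term, where *Itgad* turned to −0.15. For later times against −7 (1 member) there were 0 with the block and batch term, 3 with the block alone and 3 without a batch term. For onset against 6 weeks (5 members) there were 2 within batch 1, and *Itgam* alone was lost without a filter (adjusted p = 0.0604). For the nonprogressors (3 members) there were 5 without a batch term. The mouse block changed no other call in the fits with a batch term than those of *Itgad* and *Itgax* at −7, *Itgam* after −7 and *Itgal* in nonprogressors. In all, 80 counts of members stayed within 1.5 times the reported count and the 8 just given did not. Of the single values, 411 kept their direction and side of the threshold, while 17 single values passed only under an alternative, 11 passed only in the reported fit and 1 turned. The causes were not tested.

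Counts over all genes moved more. NOD against NOR gave 2101 genes, 403 with 6-week samples alone, 1099 with progressors alone and 1433 to 2081 with a mouse left out. Its split of 906 higher and 1195 lower became 1536 and 1477 with DESeq2, and 915 and 856 with each sample entered separately. At −7 against 6 weeks, 2670 genes became 883 with the block and batch term, 5872 with the block alone and 4077 within batch 2. For later times against −7, 828 became 0, 5355, 2157 without a batch term and 1352 within batch 2. Onset against 6 weeks fell from 8421 to 3549 within batch 1. Nonprogressors went from 5094 to 9173 without a batch term and 2712 within batch 1. In NOR, 7 genes became 46 with DESeq2, 12 without a filter or without the ribosomal RNA library, 2 with the mouse block and 0 to 54 with a mouse left out (54 without mouse 4). The late comparison of progressors and nonprogressors went from 0 to 17 with DESeq2 and 2 with each sample separate. Counts of 0 to 26 limit the precision of *Itgad* in NOR, and the −7 samples have no batch 1 counterpart.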
